A study of Mus musculus with 8 samples.

Results

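The odorant receptor (OR) genes numbered Olfr763 to Olfr827 form a tight cluster on mouse chromosome 10. The rule that defines the members uses gene symbols, and chromosome was not part of it. The gene table lists 65 genes in that range on chromosome 10, and 47 of them had a transcript cluster of their own on the array, which is the probe set that reports a single gene. Of the other genes, 7 were measured only by probe sets that several receptor genes share (Olfr773, Olfr777, Olfr782, Olfr800, Olfr819, Olfr823 and Olfr824), 2 had no probe set named for them here (Olfr785 and Olfr789), and 9 are pseudogenes. The 47 genes were set among 21789 transcript clusters that name 1 gene, of which 1022 report an odorant receptor. The receptor family numbers of the gene table place 46 of the 47 genes in class II, and give none for Olfr765.

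Knockout mice were OmpCre:Emx2(fl/fl) (n = 4) and control mice were their littermates (n = 4), all on a mixed 129 x C57BL/6J background at postnatal day 1. Controls 1, 2 and 3 were OmpCre:Emx2(fl/+), carrying Cre and 1 floxed copy of Emx2, whereas control 4 lacked Cre and was Emx2(fl/fl). Total RNA of the olfactory mucosa of each mouse was read on 1 Affymetrix Mouse Gene 1.0 ST array. Cre came from the targeted Omp gene, which is active in mature olfactory sensory neurons (OSNs), so that Emx2 is deleted late in the life of an OSN and the floxed gene stays intact in basal cells and other cell types. The Cre allele also replaces a copy of Omp in every mouse that carries it.

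Each OSN expresses a single allele of a single OR gene. The signal of an OR gene in whole olfactory mucosa therefore depends on how many OSNs chose it and on how much of its mRNA each of them holds, and these bulk samples cannot tell fewer cells apart from less RNA per cell. OR genes of class II, the larger class in mammals, lie in many clusters across the genome, whereas class I genes share a single cluster. Promoters of OR genes often hold sites for homeodomain proteins, the protein family of Emx2 and Lhx2, and for Olf/Ebf proteins. The families named here by MOR numbers are groups of OR genes of related sequence.

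Sequence near the start of 5 genes is shown because these genes carry the patterns described below. Olfr788 had the smallest p value of the 47 and Olfr820 the highest signal, Olfr798 has a homeodomain core at 2 places, and Olfr814 and Olfr815 are the pair of genes with the most similar upstream sequence. Olfr770, which is not shown, also has that core at 2 places. Each run is a RefSeq promoter window of build GRCm38.p6 of 300 bases, with 250 before and 50 after the annotated start. Capitals mark TAATTA, the core that many homeodomain proteins bind, which reads the same on both strands.
Olfr788 (chr10:129472444-129472743, plus strand): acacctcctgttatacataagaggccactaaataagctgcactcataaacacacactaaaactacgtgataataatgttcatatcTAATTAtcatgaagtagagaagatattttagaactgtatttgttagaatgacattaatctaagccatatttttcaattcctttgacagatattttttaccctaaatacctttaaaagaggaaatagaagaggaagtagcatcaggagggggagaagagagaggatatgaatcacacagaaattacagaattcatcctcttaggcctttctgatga
Olfr820 (chr10:130017113-130017412, plus strand): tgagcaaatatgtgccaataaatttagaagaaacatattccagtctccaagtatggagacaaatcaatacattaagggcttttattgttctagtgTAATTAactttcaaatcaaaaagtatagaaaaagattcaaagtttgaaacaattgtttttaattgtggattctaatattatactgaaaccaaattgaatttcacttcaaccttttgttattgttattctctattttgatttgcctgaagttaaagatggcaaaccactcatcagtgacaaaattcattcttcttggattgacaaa
Olfr798 (chr10:129626010-129626309, minus strand): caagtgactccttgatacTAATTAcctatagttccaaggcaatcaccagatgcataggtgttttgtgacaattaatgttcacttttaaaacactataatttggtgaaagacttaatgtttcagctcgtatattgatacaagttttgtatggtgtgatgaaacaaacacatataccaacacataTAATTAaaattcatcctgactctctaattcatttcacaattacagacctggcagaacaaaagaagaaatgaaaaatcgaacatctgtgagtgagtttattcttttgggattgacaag
Olfr814 (chr10:129874706-129875005, minus strand): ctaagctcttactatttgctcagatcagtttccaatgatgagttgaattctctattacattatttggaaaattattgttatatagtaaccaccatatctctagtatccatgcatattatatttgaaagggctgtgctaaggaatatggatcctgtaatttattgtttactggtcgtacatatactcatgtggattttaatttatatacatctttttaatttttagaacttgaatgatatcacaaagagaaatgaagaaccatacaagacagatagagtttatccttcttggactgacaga
Olfr815 (chr10:129902677-129902976, minus strand): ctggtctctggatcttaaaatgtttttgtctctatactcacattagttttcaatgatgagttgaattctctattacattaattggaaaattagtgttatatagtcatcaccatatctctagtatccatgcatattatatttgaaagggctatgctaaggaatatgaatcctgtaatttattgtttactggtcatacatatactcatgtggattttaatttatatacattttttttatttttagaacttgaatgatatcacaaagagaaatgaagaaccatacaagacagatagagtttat

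A window was given for 39 of the 47 genes, and in 38 of the 39 the annotated start was an ATG, so these windows are placed around the coding start and not around a mapped transcription start. The start was an ATG in 71.5% of the windows of other OR genes and in 5.83% of all windows. The shares below thus compare windows that are not placed alike. TAATTA was found in 8 of the 39 windows (20.5%), against 168 of 905 windows of other OR genes (18.6%) and 1738 of all 32851 windows in the table (5.29%). In 7 of the 8 it lay before the start, and in Olfr803 it lay after the start. In Olfr788 it began 165 bases before the start and in Olfr820 155 bases before it, and in Olfr798 it began 232 and 67 bases before the start. The Olf/Ebf core CCCNNGGG, which also reads the same on both strands and has no overlap with TAATTA, was in 0 of the 39 windows, in 29 of 905 windows of other OR genes (3.20%) and in 4491 of all windows (13.7%). The 8 genes with TAATTA had a median difference of -0.19 on the log2 scale between knockout and control mice, with 7 of 8 lower in knockouts, and the 31 genes without it had a median of -0.11, with 23 lower. These matches describe letters in a window, and no test was made of either difference.

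Emx2, the targeted gene, had log2 signals of 10.2, 10.1, 10.3 and 10.1 in knockouts 1 to 4, and 10.8, 10.7, 10.6 and 10.9 in controls 1 to 4. All knockouts lay below all controls, and the difference was -0.55 ± 0.077 (limma SE, adjusted p = 0.201 over all clusters). Signal remained in the knockouts, as did that of the related homeodomain gene Lhx2, which differed by 0.05 (adjusted p = 0.953). Omp, the marker of mature OSNs, was among the brightest genes, with means of 12.733 in knockouts and 12.999 in controls, a difference of -0.27 (adjusted p = 0.910). The mean over the receptor genes of the cluster was highest in controls 1, 2 and 4 and knockout 3. The mature OSN markers were highest in these same mice, with some differences in order. Their mean over 25 genes was 11.52, 11.59, 11.77 and 11.61 in knockouts 1 to 4 and 11.84, 11.66, 11.52 and 11.80 in controls 1 to 4, a difference of -0.09, so that knockout 1 and control 3 were lowest and controls 1 and 4 and knockout 3 highest. Knockout 4 was the lowest mouse for the mean over the receptor genes of the cluster (7.81). For the markers it lay above knockouts 1 and 2 and control 3. The mean over class I receptor genes was highest in control 2 (8.36) and lowest in knockout 2 (8.03). Of the 25 markers 18 were lower and 0 were called, with 4 lower and 1 higher at an unadjusted p under 0.05. Their part in the receptor results was not tested. Probes for Y-linked genes read 10.5 to 10.7 in knockout 3 and controls 2, 3 and 4, and 7.05 to 8.09 in knockouts 1, 2 and 4 and control 1, so this signal was not balanced between the groups. Litters are not named in the labels, so it was not possible to set mice against their own littermates.

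The 47 genes covered a wide range of signal, from 4.85 for Olfr814 to 10.1 for Olfr820 on the log2 scale as means over the 8 mice, with a median of 8.40. The median over all clusters was 9.17. The brightest were Olfr820, Olfr810, Olfr769, Olfr767 and Olfr799, which belong to 4 families. Signals of different genes come from different probes, so this order is not an order of mRNA amounts. The SD between mice was similar in the groups, with a median over the 47 genes of 0.18 in knockouts and 0.19 in controls. For 23 of the 47 genes the SE of the difference was larger than the difference itself.

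Most genes of the cluster had a lower mean in the knockouts. The mean was lower for 36 of 47 genes (76.6%) and higher for 11, against 48.6% lower over all clusters and 620 of 844 (73.5%) among class II OR genes elsewhere. The median difference, knockout minus control, was -0.12 (range, -0.40 to 0.11), against 0.00 for all clusters, -0.10 for the other class II genes and 0.00 for 115 class I genes, of which 48.7% were lower. The median was -0.05 without knockout 4, -0.07 without control 4 and -0.08 without knockout 1. It was -0.17 without knockout 2 or knockout 3 and -0.16 without control 3. Scaling each array to the mature OSN markers adds the same 0.0851 to every difference, which puts the median of all clusters at 0.09. On that scale 26 of the 47 genes (55.3%) were lower and their median was -0.04, beside 52.6% of other class II genes and 14.4% of all clusters. The shares of lower genes in the cluster and among other class II genes were not tested against each other.

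No single gene passed the threshold. At an adjusted p under 0.05, 0 of the 47 genes and 0 of all 21789 clusters were called (0%), by limma with Benjamini-Hochberg adjustment. The methods' t-test also called 0 clusters after that adjustment, and put 1 of the 47 genes at an unadjusted p under 0.05. By limma at an unadjusted p under 0.05, 3 genes were lower (6.38%), against 2.55% of all clusters and 13.3% of other class II genes, and 0 were higher, against 2.62% of all clusters. At an unadjusted p under 0.01 none of the 47 was lower, against 0.601% of all clusters and 4.86% of other class II genes. In no gene were all knockouts on the same side of all controls, a separation seen in 3.10% of all clusters and 4.86% of other class II genes. The count of 3 depended on the mice, since it was 1 without knockout 1, control 1 or control 4, 5 without knockout 2, 6 without knockout 3 and 10 without control 3. The share of all clusters at that p, in either direction, moved as well, from 5.17% with all mice. It was 3.86% without knockout 1, 7.97% without control 1 and 4.52% without control 4. Without knockout 2, knockout 3 or control 3 it was 4.88%, 7.05% and 6.24%.

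**Figure D1:**
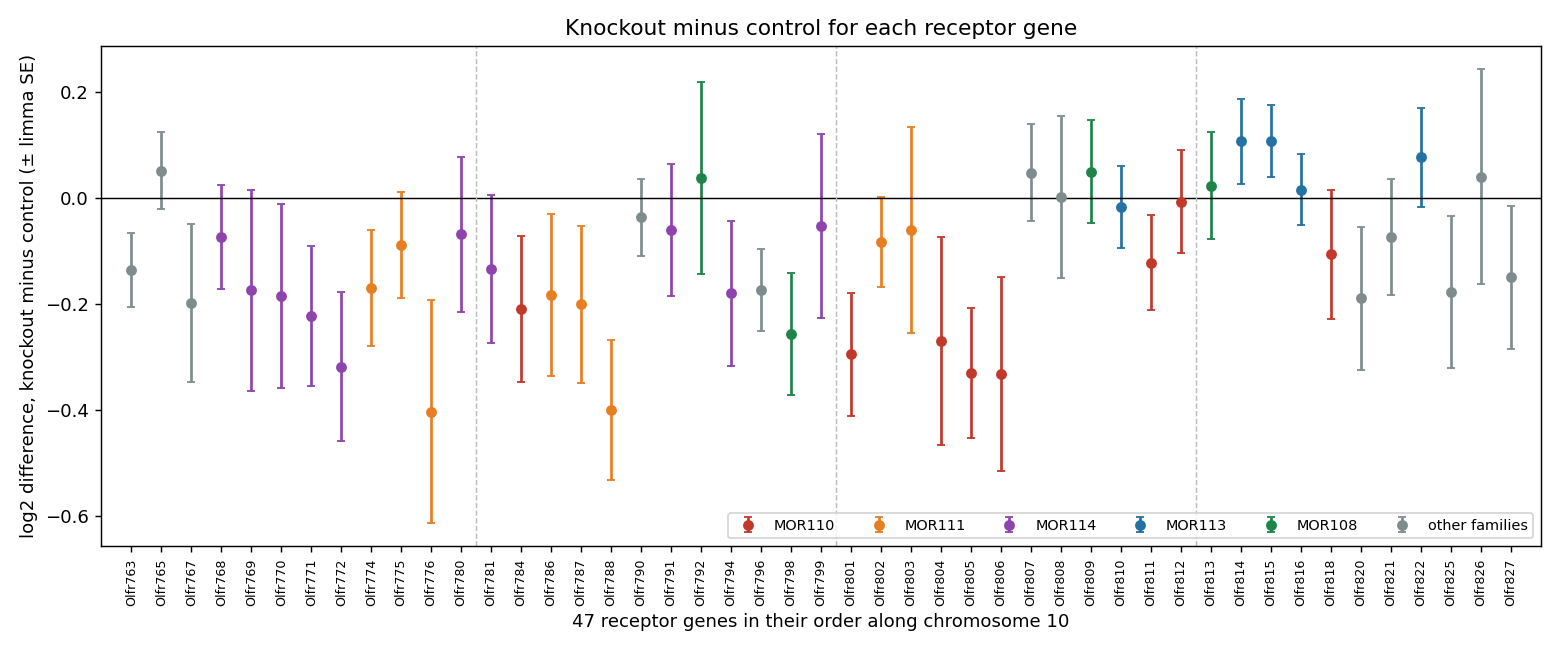
Difference in log2 signal, knockout minus control, with its limma SE (vertical axis), for the 47 receptor genes in chromosome order (horizontal axis), coloured by receptor family, with dashed lines between the 4 blocks of consecutive genes. Points of MOR110, MOR111 and MOR114 all lie below 0, and 4 of the 5 MOR113 points lie above it.

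The mice of a group differed from each other by more than the groups did. The mean log2 signal over the 47 genes was 7.83, 8.01, 8.12 and 7.81 in knockouts 1 to 4, and 8.12, 8.07, 7.88 and 8.17 in controls 1 to 4. Knockouts 1 and 4 and control 3 were low and the remaining mice were high, so the groups overlapped. The group means were 7.94 ± 0.149 in knockouts and 8.06 ± 0.131 in controls (SD, n = 4 each), a difference of -0.12, or -7.93% on the linear scale. Class II OR genes elsewhere gave nearly the same picture, with 7.91, 7.997, 8.14 and 7.84 in knockouts 1 to 4 and 8.17, 8.02, 7.96 and 8.20 in controls 1 to 4, a difference of -0.11.

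The same mice stood out gene by gene. Of the 47 genes, 5, 25, 37 and 7 lay above their own mean over 8 mice in knockouts 1 to 4, and 32, 30, 7 and 42 did in controls 1 to 4. The lowest of the 8 values came from knockout 1 or knockout 4 in 32 genes and from control 3 in 12. The highest came from control 1 or control 4 in 33 genes and from knockout 3 in 8. Knockout 3 was thus high and control 3 low across the cluster, against the direction of their groups. Without knockout 3 or without control 3, 42 of the 47 genes were lower, and without knockout 1 or without control 4, 31 were.

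**Figure D2:**
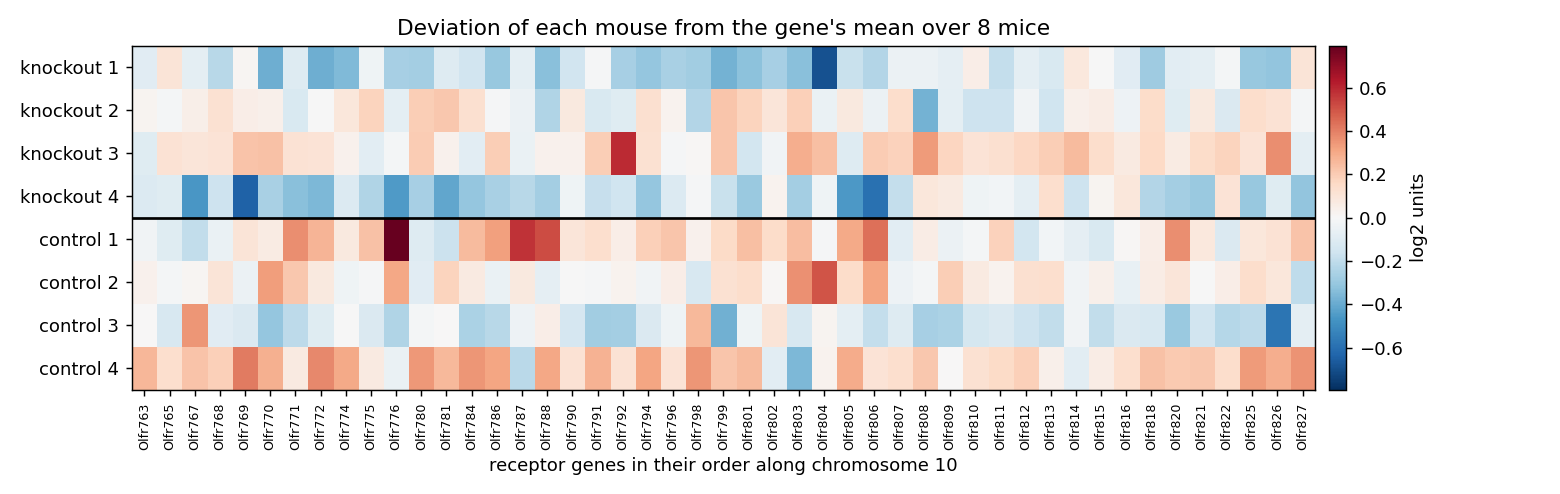
Deviation of the log2 signal of each mouse (rows, knockouts above controls) from the mean of that gene over 8 mice, for the 47 receptor genes in chromosome order (columns), with red above and blue below the mean. Knockouts 1 and 4 and control 3 are mostly blue, with 5, 7 and 7 genes above their mean, and control 4 is mostly red, with 42.

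The Y-linked signal moved with part of this pattern. Among the mice of high Y-linked signal, the mean over the 47 genes was 8.12 in knockout 3 and 8.04 in controls 2, 3 and 4, a difference of 0.08. Among the mice of low Y-linked signal it was 7.88 in knockouts 1, 2 and 4 and 8.12 in control 1, a difference of -0.24. The direction therefore held in only 1 of the 2 sets, each of which has a group with a single mouse. With that signal added to the fit, 29 of the 47 genes were lower, with a median of -0.03. Its part in the result was not tested.

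The genes with the smallest p values belong to MOR111 and MOR110. Olfr788, of MOR111, had log2 signals of 8.13, 8.22, 8.49 and 8.19 in knockouts 1 to 4 and 8.97, 8.39, 8.51 and 8.76 in controls 1 to 4. Knockouts 1, 2 and 4 lay below every control, and knockout 3 lay above control 2. The difference was -0.40 ± 0.132 (limma SE, p = 0.0150, adjusted p = 0.876), or -24.3% on the linear scale, with a two-sided exact permutation p of 0.0571, where the smallest p that 4 mice against 4 allow is 0.0286. It was -0.06 in the high Y-linked set of mice and -0.79 in the low set.

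Olfr805, of MOR110, had 8.22, 8.48, 8.30 and 7.94 in knockouts 1 to 4 and 8.70, 8.55, 8.32 and 8.69 in controls 1 to 4. Here knockout 2 was the mouse that overlapped, lying above control 3. The difference was -0.33 ± 0.123 (limma p = 0.0260, adjusted p = 0.910, exact permutation p = 0.0571), and it was -0.22 within the high and -0.49 within the low Y-linked mice.

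Olfr801, also of MOR110, had 8.83, 9.33, 9.01 and 8.86 in knockouts 1 to 4 and 9.39, 9.29, 9.12 and 9.40 in controls 1 to 4. Knockout 2 was level with the controls, and the other knockouts lay below all of them. The difference was -0.30 ± 0.116 (limma p = 0.0327, adjusted p = 0.910, exact permutation p = 0.0857), with -0.27 within the high and -0.38 within the low Y-linked mice. These 3 genes had the same direction in both sets of mice. They were picked by their p values in these same mice, and each set has a group with a single mouse, so this is no independent support.

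Olfr772, of MOR114, had 7.29, 7.67, 7.78 and 7.32 in knockouts 1 to 4 and 7.95, 7.75, 7.58 and 8.06 in controls 1 to 4. Knockouts 2 and 3 lay among the controls. The difference was -0.32 ± 0.140 (limma p = 0.0502, adjusted p = 0.910, exact permutation p = 0.143), with -0.02 within the high and -0.52 within the low Y-linked mice. The largest difference in size, -0.40 ± 0.210, was that of Olfr776, of MOR111, which had 7.13, 7.31, 7.38 and 6.94 in knockouts 1 to 4 and 8.19, 7.70, 7.15 and 7.34 in controls 1 to 4. Control 1 stood far above the rest, giving Olfr776 the largest SD between controls of the 47 genes, 0.455, and its adjusted p was 0.910 (exact permutation p = 0.171). Without control 1 its difference was -0.21, smaller in size than the -0.30 of Olfr788 without that mouse.

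The other genes with small p values for a lower signal were Olfr796 and Olfr763, the MOR269 pair among the 47, and Olfr798 of MOR108. Olfr796 had 8.63, 8.92, 8.88 and 8.79 in knockouts 1 to 4 and 9.11, 8.94, 8.86 and 9.00 in controls 1 to 4, a difference of -0.17 ± 0.077 (limma p = 0.0525, adjusted p = 0.910, exact permutation p = 0.0857). Knockouts 2 and 3 overlapped control 3. Olfr763 had 7.81, 7.92, 7.80 and 7.79 in knockouts 1 to 4 and 7.87, 7.93, 7.90 and 8.16 in controls 1 to 4, a difference of -0.14 ± 0.070 (limma p = 0.0835, adjusted p = 0.910, exact permutation p = 0.0857). The knockouts other than knockout 2 lay below every control, by small distances, and without control 4 the difference was -0.07. Olfr798, a dim gene, had 5.46, 5.50, 5.74 and 5.72 in knockouts 1 to 4 and 5.77, 5.60, 5.99 and 6.09 in controls 1 to 4, a difference of -0.26 ± 0.115 (limma p = 0.0533, adjusted p = 0.910, exact permutation p = 0.114). All its knockouts lay below the control mean, as they did in 10 of the 47 genes. The share of all clusters with that pattern was not counted.

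**Figure D3:**
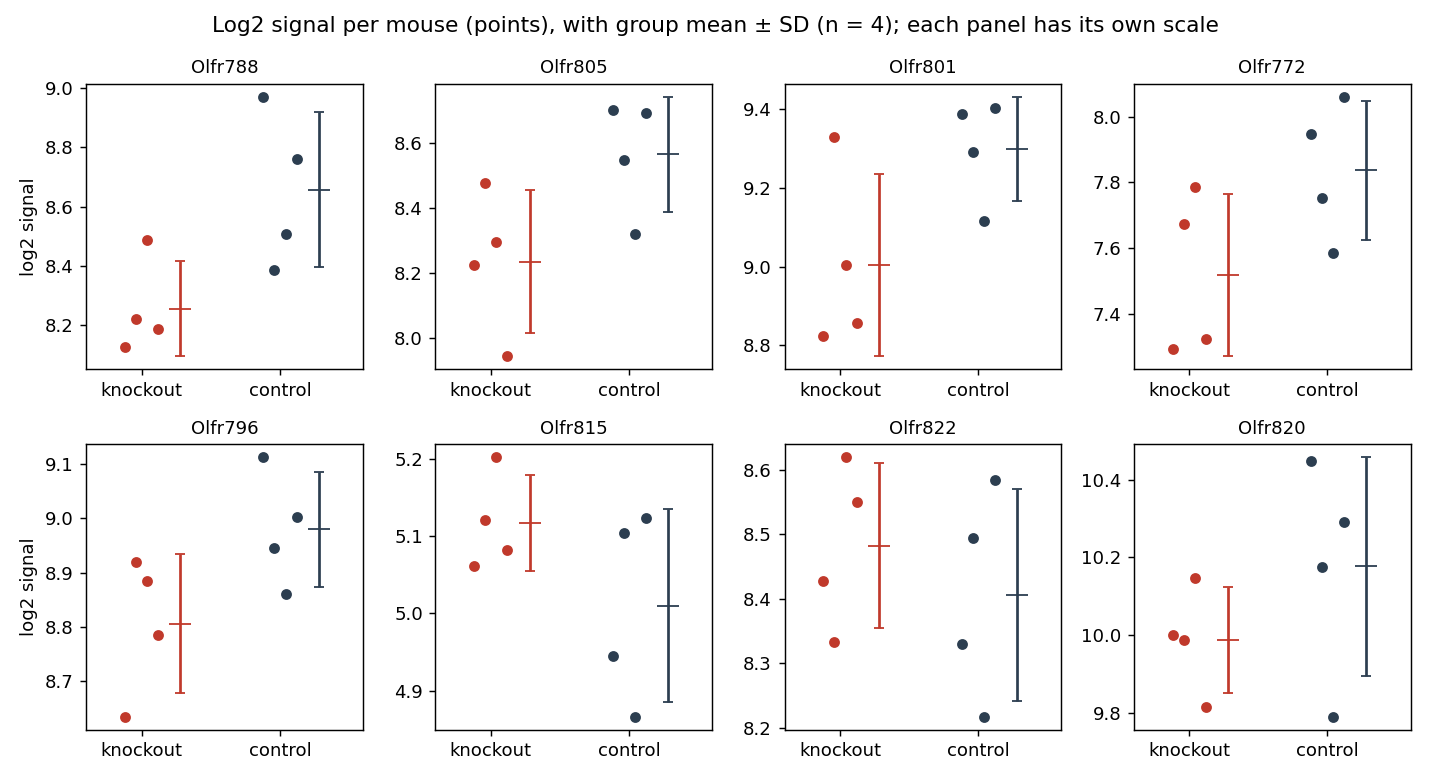
Log2 signal per mouse (points) in knockout and control mice for 8 receptor genes, with the group mean ± SD (n = 4) beside the points; each panel has its own vertical scale. In Olfr788 and Olfr805 a single knockout reaches into the range of the controls, and in Olfr815 the knockouts lie higher, overlapping 2 controls.

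Genes with a higher mean in the knockouts showed smaller differences. Olfr815, of MOR113, had 5.06, 5.12, 5.20 and 5.08 in knockouts 1 to 4 and 4.95, 5.10, 4.87 and 5.12 in controls 1 to 4, a difference of 0.11 ± 0.068 (limma p = 0.150, adjusted p = 0.910, exact permutation p = 0.257). It was the only gene of the 47 with all knockouts above the control mean, a pattern whose share over all clusters was not counted. Its neighbour Olfr814 had 4.93, 4.89, 5.10 and 4.68 in knockouts 1 to 4 and 4.78, 4.82, 4.82 and 4.76 in controls 1 to 4, a difference of 0.11 ± 0.080 (limma p = 0.218, adjusted p = 0.910, exact permutation p = 0.314). Both rank among the 3 dimmest genes of the cluster, at percentiles of 1.45 for Olfr814 and 1.93 for Olfr815 among all clusters, and 46.9% of the 10-letter words of their upstream windows are shared. Whether their probes tell the genes apart was not tested. The difference of Olfr815 was 0.06 without control 3, and that of Olfr814 was 0.04 without knockout 3.

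Olfr822, also of MOR113 and of moderate signal, had 8.43, 8.33, 8.62 and 8.55 in knockouts 1 to 4 and 8.33, 8.49, 8.22 and 8.58 in controls 1 to 4, a difference of 0.08 ± 0.093 (limma p = 0.435, adjusted p = 0.931, exact permutation p = 0.486). Olfr765 had 8.77, 8.65, 8.78 and 8.57 in knockouts 1 to 4 and 8.57, 8.65, 8.54 and 8.80 in controls 1 to 4, a difference of 0.05 ± 0.073 (limma p = 0.503, adjusted p = 0.941, exact permutation p = 0.629). In both genes the groups overlapped over most of their range, and without control 3 the differences were 0.01 for Olfr822 and 0.02 for Olfr765.

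None of the 5 brightest genes reached an unadjusted p under 0.05. Olfr820, the only MOR116 gene among the 47, had 10.001, 9.99, 10.1 and 9.81 in knockouts 1 to 4 and 10.4, 10.2, 9.79 and 10.3 in controls 1 to 4, a difference of -0.19 ± 0.135 (limma p = 0.195, adjusted p = 0.910, exact permutation p = 0.286). Control 3 was the lowest of all mice for this gene, and the difference was -0.32 without control 3 and -0.10 without control 1. Olfr810, of MOR113, had 9.90, 9.68, 9.95 and 9.81 in knockouts 1 to 4 and 9.83, 9.91, 9.70 and 9.97 in controls 1 to 4, a difference of -0.02 ± 0.077 (limma p = 0.828, adjusted p = 0.984, exact permutation p = 0.771). Olfr769 had 9.84, 9.87, 10.1 and 9.18 in knockouts 1 to 4 and 9.93, 9.78, 9.71 and 10.2 in controls 1 to 4, a difference of -0.17 ± 0.190 (limma p = 0.382, adjusted p = 0.922, exact permutation p = 0.543). Its low mean rested on knockout 4, since the difference was 0.01 without that mouse.

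Olfr767, the only MOR115 gene among the 47, had 9.38, 9.50, 9.55 and 8.99 in knockouts 1 to 4 and 9.26, 9.47, 9.80 and 9.68 in controls 1 to 4, a difference of -0.20 ± 0.149 (limma p = 0.218, adjusted p = 0.910, exact permutation p = 0.314). Control 3 was the highest mouse here, and the difference was -0.11 without it, -0.08 without knockout 4 and -0.02 with the Y-linked signal in the fit. Olfr799 had 9.07, 9.67, 9.66 and 9.27 in knockouts 1 to 4 and 9.60, 9.56, 9.06 and 9.66 in controls 1 to 4, a difference of -0.05 ± 0.173 (limma p = 0.764, adjusted p = 0.978, exact permutation p = 1). At the dim end, Olfr804 of MOR110 had 4.39, 5.03, 5.32 and 5.05 in knockouts 1 to 4 and 5.08, 5.58, 5.10 and 5.11 in controls 1 to 4, a difference of -0.27 ± 0.195 (limma p = 0.202, adjusted p = 0.910, exact permutation p = 0.314). It was -0.09 without knockout 1, -0.15 without control 2 and -0.03 with the Y-linked signal in the fit. Lower means were found at both ends of the signal range, in 16 of the 23 genes above the median signal of the cluster (median difference, -0.07) and in 20 of the 24 at or below it (median difference, -0.13).

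Counts by receptor family are read beside the 48.6% of all clusters and 73.5% of other class II genes that were lower. All 8 MOR110 genes were lower in the knockouts, with a median of -0.24, from -0.33 for Olfr806 and Olfr805 to -0.01 for Olfr812. Between these were Olfr801, Olfr804 (-0.27), Olfr784 (-0.21), Olfr811 (-0.12) and Olfr818 (-0.11). All 8 MOR111 genes were lower, with a median of -0.18, where Olfr776 and Olfr788 were followed by Olfr787 (-0.20), Olfr786 (-0.18), Olfr774 (-0.17), Olfr775 (-0.09), Olfr802 (-0.08) and Olfr803 (-0.06). All 10 MOR114 genes were lower, with a median of -0.15. After Olfr772 these were Olfr771 (-0.22), Olfr770 (-0.19), Olfr794 (-0.18), Olfr769, Olfr781 (-0.13), Olfr768 (-0.07), Olfr780 (-0.07), Olfr791 (-0.06) and Olfr799. These counts depended on the mice and on the fit. With the Y-linked signal in the fit, 7 of 8 MOR110, 7 of 8 MOR111 and 6 of 10 MOR114 genes were lower, with medians of -0.16, -0.15 and -0.02. The MOR114 median was -0.03 without knockout 4, -0.07 without control 4 and -0.10 without knockout 1. The MOR111 median was -0.08 without control 1 and -0.10 without knockout 1, and the MOR110 median was -0.14 without knockout 1. Other omissions made the medians larger in size. Without control 3 they were -0.32 for MOR110, -0.22 for MOR111 and -0.22 for MOR114.

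In MOR113, 4 of 5 genes were higher, with a median of 0.08. It was 0.01 without control 3, 0.03 without knockout 3, 0.05 without control 1 and 0.17 with the Y-linked signal in the fit. Without knockout 2 or control 2 it was 0.11. Olfr816 differed by 0.01 and Olfr810 was the lower gene. MOR108 had 3 of 4 genes higher, Olfr809 (0.05), Olfr792 (0.04) and Olfr813 (0.02), and a median of 0.03, with Olfr798 as the lower gene. In MOR210, Olfr825 (-0.18) and Olfr827 (-0.15) were lower and Olfr826 was higher (0.04), and the MOR112 genes Olfr790 (-0.04) and Olfr808 (0.00) showed next to no difference. Of the families with a single gene among the 47, those of Olfr767, Olfr820 and Olfr821 (-0.07) were lower and that of Olfr807 was higher (0.05).

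Means over the genes of a family were also taken in each mouse. The mean of the 8 MOR110 genes was 7.52, 7.81, 7.85 and 7.53 in knockouts 1 to 4 and 7.95, 7.95, 7.66 and 7.98 in controls 1 to 4, a difference of -0.21. Control 3 lay among the knockouts and the other controls lay above all of them. The mean of the MOR111 genes was 7.23, 7.50, 7.52 and 7.25 in knockouts 1 to 4 and 7.84, 7.55, 7.40 and 7.51 in controls 1 to 4, a difference of -0.20. The mean of the MOR114 genes was 8.03, 8.32, 8.40 and 7.93 in knockouts 1 to 4 and 8.34, 8.33, 8.08 and 8.52 in controls 1 to 4, a difference of -0.15. In both families knockouts 1 and 4 were the lowest mice and the other knockouts lay among the controls.

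The mean of the MOR113 genes was 7.45, 7.40, 7.60 and 7.45 in knockouts 1 to 4 and 7.39, 7.46, 7.31 and 7.52 in controls 1 to 4, a difference of 0.06. Knockouts 1 and 4, the low mice of the other families, were not low here, whereas control 3 again was. In the high Y-linked set the differences were -0.02 for MOR110, 0.03 for MOR111, 0.09 for MOR114 and 0.17 for MOR113, and in the low Y-linked set they were -0.33, -0.51, -0.25 and 0.05 in the same order. MOR113 was the highest of the 4 families in each set of mice. The families were compared after the differences in these same mice were seen, and each set has a group with a single mouse, so this is no independent support. Scaling to the mature OSN markers left 7 of 8 MOR110, 6 of 8 MOR111, 6 of 10 MOR114 and 0 of 5 MOR113 genes lower, with medians of -0.16, -0.09, -0.07 and 0.16. These follow from the constant 0.0851 that the scaling adds, and the median of all clusters on that scale was 0.09. The family groupings are descriptions, and no test was made between families.

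**Figure D4:**
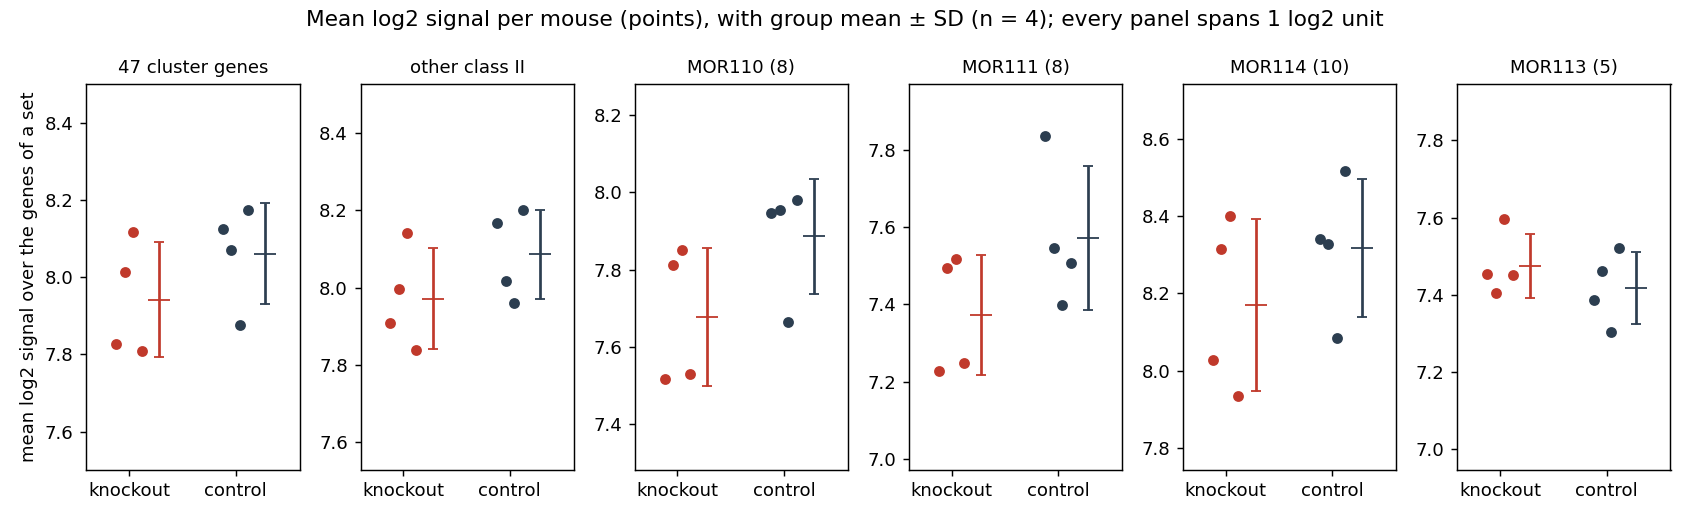
Mean log2 signal per mouse (points) in knockout and control mice over the 47 cluster genes, over class II receptor genes elsewhere and over the genes of 4 families, with the group mean ± SD (n = 4) beside the points; every panel spans 1 log2 unit. The families MOR110, MOR111 and MOR114 have lower knockout means, by -0.21, -0.20 and -0.15, and MOR113 differs by 0.06.

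The genes were also read by their position along the chromosome. In 4 blocks of consecutive genes, 11 of 12 genes were lower in the block from Olfr763 to Olfr780 (median, -0.17), 11 of 12 from Olfr781 to Olfr799 (median, -0.18), 9 of 12 from Olfr801 to Olfr812 (median, -0.07) and 5 of 11 from Olfr813 to Olfr827 (median, 0.01). The longest run of neighbouring genes with a lower mean held 17 genes, from Olfr767 to Olfr791. The last block holds 4 of the 5 MOR113 genes, and its other 7 genes included 5 lower ones, with a median of -0.11. Its median changed sign with a single mouse left out, to -0.08 without knockout 3, -0.01 without knockout 4, -0.00161 without control 2 and -0.14 without control 3. Most larger families are spread over several blocks. In the third block the 6 MOR110 genes had a median of -0.28 and the 2 MOR111 genes a median of -0.07, and the single MOR108 gene differed by 0.05. The MOR111 genes had medians of -0.17 in the first block and -0.20 in the second, and the MOR114 genes -0.18 in the first and -0.10 in the second. With control 4 left out the first block median was -0.09, with knockout 4 left out -0.10 and with knockout 1 left out -0.11, and the second was -0.12 without knockout 1 or control 1 and -0.11 without control 4. In the other direction, the first was -0.24 without knockout 3 and the second -0.22 without knockout 2.

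Genes flanking the cluster, and OR genes elsewhere on the chromosome, were measured on the same arrays. The 7 nearest measured genes that are not receptors, 5 before and 2 after the cluster, Itga7, Bloc1s1, Rdh5, Cd63, Mettl7b, Neurod4 and Tespa1, differed by -0.08 to 0.13, with 3 lower, and none was called. Of 9 other OR genes of chromosome 10, 7 were lower, with a median of -0.10. Of 17 measured genes for receptor signalling and export, 12 were lower and 0 were called, and Rtp2, a chaperone that helps ORs to the cell surface, had the smallest p (-0.26 ± 0.094, adjusted p = 0.910), followed by the phosphodiesterase Pde4a (-0.16, adjusted p = 0.910). Of 22 measured genes tied to OR gene choice, 10 were lower and 0 were called, with Emx2 itself and Cbx5, which encodes a heterochromatin protein (0.14 ± 0.054, adjusted p = 0.910), at the smallest p values.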

How the data were processed

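Olfactory mucosa of 8 mice, 4 in each group, was measured with 1 array per mouse. The authors deposited 1 table of log2 signals per transcript cluster, made with Affymetrix Expression Console per the submitters' processing notes. Its version, the summary algorithm and the genome build of the probes are not given in the sources used here, so gene coordinates served only to order the genes. Values ran from 2.65 to 14.9 and array medians from 8.64 to 8.68. No depth exists for arrays, and their number limits the precision. Groups came from the phenotype labels, and replicate numbers follow the order of deposit.

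Of 35557 clusters, 21789 name 1 gene and were tested, 1621 name several and 12147 none. Symbols were updated through entrez identifiers of the RefSeq gene table (21698 found), whose synonyms gave the receptor family, with MOR1 to MOR42 taken as class I. Each gene of the range had at most 1 cluster of its own. Differences are knockout minus control from limma 3.58.1 (R 4.3.3; lmFit, eBayes, Benjamini-Hochberg over all tested clusters), a test first checked on simulated data. Exact permutation tests ran over all 70 assignments of the mice. Sets of genes are described by counts and medians without a test.

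Genes named were the 8 lower and 4 higher of smallest p, the 5 brightest, the 3 dimmest, Olfr801, the gene of largest control SD, Emx2, Lhx2 and Omp, and the 2 of smallest p in each receptor list. Other members appear with their differences. The members and lists were chosen with earlier results of these data known. Marker lists for 7 cell types and for Y-linked genes were read beside the results. In the means over each list, immune markers stood at 9.96 in control 2 and between 9.08 and 9.29 in the other mice, and red blood cell markers at 8.54 to 8.86 in knockouts and 7.85 to 9.31 in controls. Sustentacular markers ranged from 12.4 to 12.6 in knockouts and 12.5 to 12.6 in controls, immature OSN markers from 11.3 to 11.4 in both groups, basal cell markers from 10.5 to 10.6 in knockouts and 10.3 to 10.6 in controls, and ciliated respiratory markers from 10.3 to 10.6 in knockouts and 10.2 to 10.6 in controls. Alternatives were quantile normalization, scaling to the mature OSN markers, a Y-linked covariate, array weights, clusters above the median signal, the methods' t-test, clusters of several genes, and each mouse left out. Protein sequences were not used here.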

Additional observations from a re-analysis of the deposited data

Results flagged for a closer look

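In 56 checks of a group of 4 mice for a value far from the others (Dixon's test at its 95% level), 4 values stood out, and chance gives about 1 in 20. For Olfr763, knockout 2 had a log2 signal of 7.92, where the other knockouts lay between 7.79 and 7.81. For Olfr799, control 3 had 9.06, where the other controls lay between 9.56 and 9.66. For Olfr804, control 2 had 5.58, where the other controls lay between 5.08 and 5.11. For the mean over the MOR110 genes, control 3 had 7.66, where the other controls lay between 7.95 and 7.98, and without control 3 the median difference of the family was -0.32.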

How the results depend on the processing

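No paired analysis was possible because the labels give no litter or replicate number. Over all clusters, the count of calls was 4 after scaling to the mature OSN markers, 5 with array weights and 2 among clusters above the median signal, and 0 to 1 with a mouse left out (1 without control 3). The count of lower genes in the cluster was 31 to 42 with a mouse left out, where 45.9% to 51.9% of all clusters were lower. Among the genes above the median signal of all clusters it was 8, which is all 8 such genes. Of all clusters above that signal 43.4% were lower. The differences of the 8 genes ran from -0.20 for Olfr767 to -0.01 for Olfr812. The count of lower genes at an unadjusted p under 0.05 was 1 after scaling, 0 with the Y-linked covariate, 7 with array weights, 0 above the median signal, 1 by the methods' t-test, and 1 to 10 with a mouse left out. The share of tested clusters at that p, in either direction, was 4.13%, 3.18%, 6.95%, 6.38% and 4.96% in the same order. With a mouse left out that share was 3.37% (without knockout 4) to 7.97% (without control 1). The count of higher ones was 0 to 1 (1 without knockout 4). The count of genes with separate groups was 1 after scaling and 0 to 3 with a mouse left out (3 without knockout 2 or control 3). The share of all clusters with separate groups was not counted in these settings. Smaller groups separate more often by chance, so these counts cannot be set against the count with all mice. The median difference was -0.05 (without knockout 4) to -0.17 (without knockout 2 or 3), -0.10 after quantile normalization and -0.16 with array weights, and -0.13 with clusters of several genes. Within the mice of high Y-linked signal the mean over the 47 genes differed by 0.0776, a comparison added after seeing the data, as were those of families and blocks. With a mouse left out, the median ranged from -0.0967 (without knockout 3) to 0.0780 in MOR108, where it was also below 0 without control 3, from -0.0875 to 0.0339 (without control 4) in MOR112, where 4 of the 8 omissions gave a value above 0, and from -0.136 (without control 3) to 0.0468 in the last block, which was below 0 in 4 of them. Scaling adds 0.0851 to every difference, so that each value between -0.0851 and 0 turns. MOR112 turned to 0.0669 after scaling and 0.0527 with the covariate, the third block to 0.0128 after scaling and the last block to -0.0181 with array weights. Of 216 values of the 18 named genes of the cluster, 206 kept their direction, and the lowest adjusted p was 0.506. Olfr810 turned to 0.0678 after scaling and 0.0425 with the covariate, and Olfr799 to 0.0314 and 0.0262. With a mouse left out, Olfr810 ranged from -0.0670 to 0.0351 (above 0 without knockout 2, control 2 or control 4), Olfr799 from -0.191 to 0.0627 (above 0 without knockout 1 or control 4), Olfr769 from -0.280 to 0.00959 (above 0 without knockout 4) and Lhx2 from -0.0312 (without knockout 3) to 0.0991. The causes were not tested. Taking the mean over several clusters of a gene could not differ, since each gene had 1.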

Other observations

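Probe sets that several genes of the cluster share gave 9 distinct sets of values among 11 clusters, with 8 lower in knockouts and a median difference of -0.14. The probe set shared by Olfr774, Olfr775, Olfr776 and Olfr787, all of MOR111, had log2 signals of 9.19, 9.30, 9.37 and 9.02 in knockouts 1 to 4 and 9.72, 9.42, 9.38 and 9.64 in controls 1 to 4, a difference of -0.32. Every knockout lay below every control there, with knockout 3 just below control 3. Groups that do not overlap were seen in 3.10% of the clusters that name 1 gene. None of the other shared probe sets showed this, and neither did the own clusters of these MOR111 genes. For Olfr823 and Olfr824, which no probe set reads alone, the difference was -0.23 in both shared probe sets, for Olfr800 with Olfr777 it was -0.12 and -0.08, and for Olfr772 with Olfr773 it was -0.17. For Olfr804 with Olfr782 it was -0.14, and for Olfr819 with Olfr247 it was 0.02 and -0.02.

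Among the other OR genes of chromosome 10, Olfr1355 had 6.79, 6.95, 6.58 and 6.60 in knockouts 1 to 4 and 7.11, 7.04, 7.01 and 7.13 in controls 1 to 4. The groups did not overlap, and the difference was -0.34 ± 0.085 (limma adjusted p = 0.673). Olfr1351 was higher, with 7.55, 7.57, 7.74 and 7.67 in knockouts 1 to 4 and 7.48, 7.37, 7.16 and 7.57 in controls 1 to 4 (0.24 ± 0.089, limma adjusted p = 0.910). Both genes were named after their values were seen.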
